A study of Mus musculus with 4 samples.

Results

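The 8 genes of the Socs family, Cish and Socs1 to Socs7, were followed in Beko cells, a line of mouse pre-T cells in which Notch signaling is always on. They were chosen by gene symbol, and all 8 are among the 24391 genes of the deposited count table. RNA-Seq was available for 4 libraries of this line: 2 of cells kept for 48 h in the γ-secretase inhibitor (GSI) DAPT, and 2 of cells that were kept for 48 h in GSI, washed and cultured for another 24 h (washout). The cells of both groups had therefore been exposed to GSI, and the comparison asks how genes respond when Notch activity is allowed to return. The labels give a DAPT dose of 10 mg/ml, whereas the methods of the study give the same figure in μg/ml. Washed cells had also spent 24 h longer in culture, so the loss of the inhibitor, the wash and the longer culture cannot be told apart. Only 1 cell line was used, and nothing states that the 2 libraries of a group came from separate cultures, so that p-values measure the spread between these libraries, which may be technical.

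SOCS proteins are the classical negative feedback arm of cytokine signaling. A cytokine receptor activates Janus kinases (JAKs), the JAKs phosphorylate STAT transcription factors, and the STATs switch on, among other genes, those encoding SOCS proteins. Each SOCS protein has an SH2 domain, which binds phosphotyrosine on receptors or JAKs, and a C-terminal SOCS box, which recruits elongins B and C, cullin 5 and the RING protein Rnf7 into a ubiquitin ligase. In developing T cells, SOCS1 is best known for limiting the response to cytokines such as IL-7 and interferon γ.

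For orientation, promoter sequences are shown for the 2 members with the highest level per exon length, Socs1 and Socs3, and for Cish, the classical STAT5 target. RefSeq windows (GRCm38.p6) were at hand for 4 of the 8 members, and Socs2, Socs5, Socs6 and Socs7 had no entry. Both strands were searched for TTCNNNGAA, the palindromic STAT motif, for the same TTC and GAA with 4 bases between them, for TGGGAA, the core of the RBPJ motif, and for 2 GAAA runs with 2 bases between them, a repeat found in interferon response elements. The 250 bases before the start site of Socs1 (chr16:10785537-10785786, minus strand) and of Socs3 (chr11:117969367-117969616, minus strand), and 30 bases around the start site of Cish (chr9:107296654-107296683, plus strand), read 5′ to 3′ with matches in capitals:
Socs1: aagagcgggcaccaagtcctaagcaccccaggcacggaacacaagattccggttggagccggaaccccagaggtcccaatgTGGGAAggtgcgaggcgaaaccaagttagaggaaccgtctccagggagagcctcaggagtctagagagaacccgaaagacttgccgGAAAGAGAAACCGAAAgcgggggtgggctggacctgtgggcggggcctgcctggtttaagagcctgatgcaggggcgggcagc
Socs3: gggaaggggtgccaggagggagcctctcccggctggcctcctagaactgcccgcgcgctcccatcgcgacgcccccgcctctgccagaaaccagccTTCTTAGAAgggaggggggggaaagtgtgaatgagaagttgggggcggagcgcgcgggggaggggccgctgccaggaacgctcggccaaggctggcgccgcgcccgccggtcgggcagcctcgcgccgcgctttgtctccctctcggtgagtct
Cish: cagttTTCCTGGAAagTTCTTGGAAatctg
In Socs1 the capitals mark TGGGAA, which begins 169 bases before the start, and 2 overlapping GAAA repeats, GAAAGAGAAA and GAAACCGAAA, which begin 83 and 77 bases before it. In Socs3 they mark TTCTTAGAA, 154 bases before the start, and in Cish 2 matches of the STAT motif, TTCCTGGAA and TTCTTGGAA, just after the start. No match was found in the Socs4 window. Among all 32851 windows of 300 bases, 8.30% held TTCNNNGAA, 6.95% the form with 4 bases between, 25.6% TGGGAA and 3.44% the GAAA repeat, so these letters are a description of the windows and not evidence of binding.

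The libraries held between 13716199 and 36364200 counts, and replicate 1 was the deeper one in both groups. Values are given as CPM, counts scaled to a common library size with TMM normalization factors, and the limit of detection was taken as 3 counts, which correspond to 0.0881 to 0.223 CPM and cover counting error only. A gene was called deregulated when its adjusted p-value was under 0.05 and its log2 fold change exceeded 1 in either direction. After washout 2387 of 12266 genes tested were deregulated (19.5%), of which 950 were higher (7.74% of the genes tested) and 1437 lower (11.7%). With library totals alone the split was 587 higher and 1961 lower, and the median log2 fold change of all genes moved from -0.01 to -0.21. At the adjusted p-value alone, 52.5% of all genes tested passed, 27.0% being higher and 25.4% lower. The Notch pathway genes used to check the labels were all higher after washout. Notch1 had 505 and 636 CPM under GSI and 1184 and 1332 CPM after washout, Dtx1 46.1 and 64.3 against 409 and 605 CPM, and Hes1 21.8 and 7.67 against 43.6 and 37.9 CPM. The 14 markers of T-cell progenitors were detected in every library, at summed levels of 6930 and 7430 CPM under GSI and 6570 and 6390 CPM after washout, of which Ptcra was called higher and Cd4, Cd28 and Gata3 lower. Among markers of other lineages, the 9 mast cell genes summed to 275 and 167 CPM under GSI and to 45.7 and 30.5 CPM after washout. Nearly all of this was Cpa3 (176 and 77 against 9.34 and 2.23 CPM) and Kit (98.8 and 89.3 against 36.3 and 28.3 CPM). Of the 9 mast cell genes, 6 had at most 3 counts in every library, with Fcer1a, Ms4a2, Mcpt4, Tpsb2 and Cma1 at 0. The 11 myeloid genes summed to 49.4 and 38.4 against 5.58 and 4.98 CPM, nearly all of it Itgam (48.7 and 37.9 against 5.37 and 4.76 CPM). Of these 11 genes, 7 had at most 3 counts in every library, with Lyz2, Elane and Cebpa at 0. The 8 stromal genes summed to 501 and 311 against 125 and 126 CPM, most of it Vim, with Col3a1 and Dcn at 0. The B cell, NK cell and erythroid lists summed to 5.96 to 24.8 CPM under GSI and to 2.01 to 12.0 CPM after washout, with Pax5, Ebf1, Ms4a1, Gzmb, Zbtb16, Klrd1, Hbb-b1 and Hba-a1 at 0. The part of these shifts in the values of the Socs family was not tested, and in bulk RNA fewer cells of a type and less RNA per cell cannot be told apart.

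None of the 8 Socs family genes was called deregulated after washout, against 19.5% of all genes tested. Of these 8, 6 had enough counts to be tested (Socs1, Socs3, Socs4, Socs5, Socs6 and Socs7), and 2, Cish and Socs2, fell below the count filter. At the adjusted p-value alone 1 of the 6 passed, Socs1, which was lower, against 52.5% of all genes tested. The 6 log2 fold changes lay between -0.48 (Socs1) and 0.29 (Socs6), with a median of -0.10, whereas the median over all genes tested was -0.01. All 6 were smaller than 0.5 in either direction, which held for 49.5% of all genes tested. The 95% interval of each of the 6 lay inside a 2-fold change in both directions. The sign of the family median depended on the processing. After offsets for GC content and exon length it was 0.106, beside 0.072 for all genes tested.

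**Figure D1:**
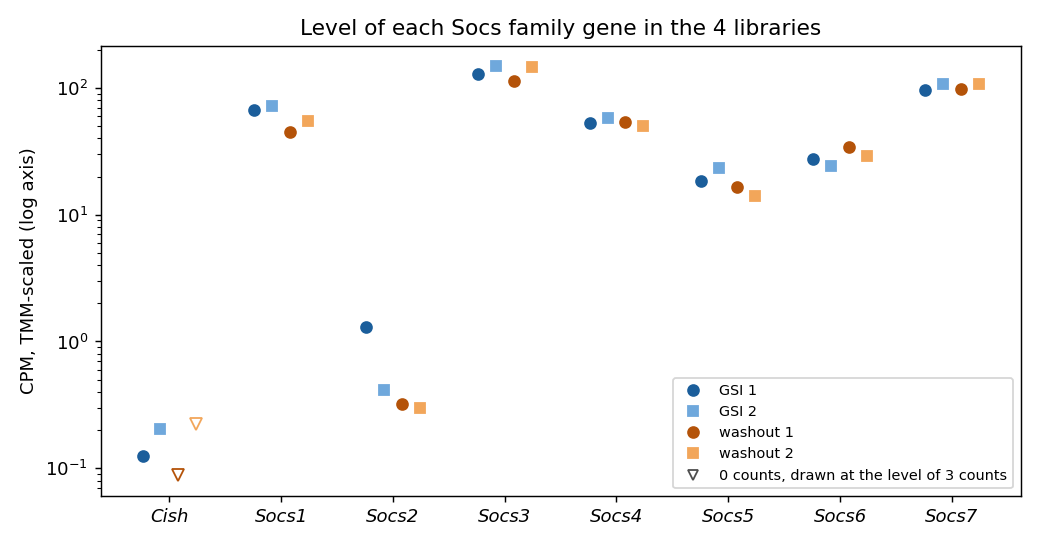
CPM of the 8 Socs family genes in each library, on a log axis, with GSI libraries in blue, washout libraries in orange, circles for replicate 1 and squares for replicate 2. Open triangles stand for 0 counts and are drawn at the level of 3 counts. Socs3 and Socs7 had the highest CPM, and Cish and Socs2 lay near or below 1 CPM.

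The members differed far more from each other than between the conditions. Per kilobase of annotated exon, Socs1 stood at 55.1 and 58.7 CPM under GSI and Socs3 at 44.3 and 51.2. After washout Socs1 had 37.0 and 44.8 CPM per kilobase and Socs3 39.3 and 50.8, so that the 2 genes were separate under GSI and overlapped after washout. Next came Socs7, with 13.2 to 14.8 CPM per kilobase over the 4 libraries, and Socs4, with 7.23 to 8.45. Socs5, with 3.22 to 5.29, and Socs6, with 2.94 to 4.15 CPM per kilobase, overlapped each other. Socs2, with 0.0312 to 0.138, and Cish, with 0 to 0.0320 CPM per kilobase, closed the order. These levels use the exon lengths of GENCODE vM1, from 1220 bases for Socs1 to 9532 bases for Socs2, which include all annotated isoforms. A gene that mostly uses a short isoform is thus set too low.

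Socs1 encodes the member that binds JAKs directly and blocks their kinase activity. The gene lies on chromosome 16 from 10783901 to 10785629 (mm9, minus strand), overlaps no other annotated gene and has a GC content of 63.6% in its exons. Its counts were 2150 and 1046 under GSI and 1536 and 735 after washout. Scaled to the libraries, this was 67.2 and 71.7 CPM under GSI (69.4 ± 3.17, SD, n = 2) and 45.1 and 54.7 CPM after washout (49.9 ± 6.76, SD, n = 2). Both washout libraries lay below both GSI libraries. The log2 fold change of Socs1 was -0.48 (standard error 0.121, 95% interval -0.775 to -0.187, adjusted p = 0.0172 by the quasi-likelihood test of edgeR). In linear terms Socs1 fell by 28.4%, with an interval from -41.6% to -12.2%. The interval stays inside the threshold of -1. When each library was left out in turn, the value of Socs1 lay between -0.60 and -0.34. Its adjusted p was 0.0501 with GSI replicate 1 left out and 0.0887 with GSI replicate 2 left out. It was 0.0573 when washout replicate 1 was left out and 0.0037 when washout replicate 2 was. After offsets for GC content and exon length it was -0.24 (adjusted p = 0.0522 by that test), so that Socs1 passed the test neither in this fit nor in 3 of the 4 fits with a library left out.

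Socs3 encodes a second kinase-blocking member, which docks on the gp130 chain of the IL-6 receptor family. It lies on chromosome 11 from 117827393 to 117831361 (mm9, minus strand) and had the most counts of the family. Under GSI it had 4100 and 2159 counts, or 128 and 148 CPM, and after washout 3868 and 1977 counts, or 114 and 147 CPM. The groups overlapped, and the libraries after washout differed by 1.29-fold. The log2 fold change of Socs3 was -0.08 (standard error 0.149, 95% interval -0.444 to 0.275, adjusted p = 0.659 by the quasi-likelihood test of edgeR). The interval covers a change from -26.5% to 21.0%. The sign of this small value changed with the processing, being 0.25 after offsets for GC content and length, 0.03 without GSI replicate 2 and 0.10 without washout replicate 1.

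Socs4 and Socs5 form a pair with long N-terminal regions and are linked to the control of the EGF receptor. Socs4, on chromosome 14 from 47896606 to 47915773 (mm9, plus strand), had 53.3 and 58.1 CPM under GSI and 53.5 and 49.7 CPM after washout. The groups of Socs4 overlapped, and its log2 fold change was -0.11 (standard error 0.101, 95% interval -0.353 to 0.138). Socs5, on chromosome 17 from 87507019 to 87536923 (mm9, plus strand), had 592 and 339 counts under GSI and 568 and 190 after washout. This corresponds to 18.5 and 23.2 CPM against 16.7 and 14.1 CPM, and the groups did not overlap. The log2 fold change of Socs5 was -0.42 (standard error 0.169, 95% interval -0.83 to -0.012, adjusted p = 0.0783 by the quasi-likelihood test of edgeR), which did not pass the test. Under total-count scaling, which lowers the median of all genes to -0.21, Socs5 was at -0.62 (adjusted p = 0.0221 by that test) and Socs4 at -0.31 (adjusted p = 0.0418 by that test). Whether either gene passes thus depends on the processing.

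Socs6 and Socs7 are the members most often linked to receptor tyrosine kinases and their adaptors, among them Kit and the insulin receptor substrates. Socs6 was the only member above 0 by more than 0.1 on the log2 scale. It had 880 and 353 counts under GSI and 1162 and 388 after washout, or 27.5 and 24.2 CPM against 34.1 and 28.9 CPM, with no overlap between the groups. The log2 fold change of Socs6 was 0.29 (standard error 0.136, 95% interval -0.042 to 0.616, adjusted p = 0.122 by the quasi-likelihood test of edgeR), which did not pass the test. Without washout replicate 2 it was 0.41 with an adjusted p of 0.0433 by that test, and after offsets for GC content and length 0.345 with an adjusted p of 0.0262. Socs7, on chromosome 11 from 97223865 to 97259856 (mm9, plus strand), was the flattest member, with 96.2 and 107 CPM under GSI and 97.9 and 107 CPM after washout. Its libraries overlapped, and the log2 fold change of Socs7 was 0.01 (standard error 0.104, 95% interval -0.238 to 0.263). After offsets for GC content and length the value of Socs7 was 0.37 (adjusted p = 0.00615 by that test), below the threshold of 1. Among the 6 genes tested, Socs1, Socs5 and Socs6 were those whose groups did not overlap, which also held for 77.3% of all genes tested.

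**Figure D2:**
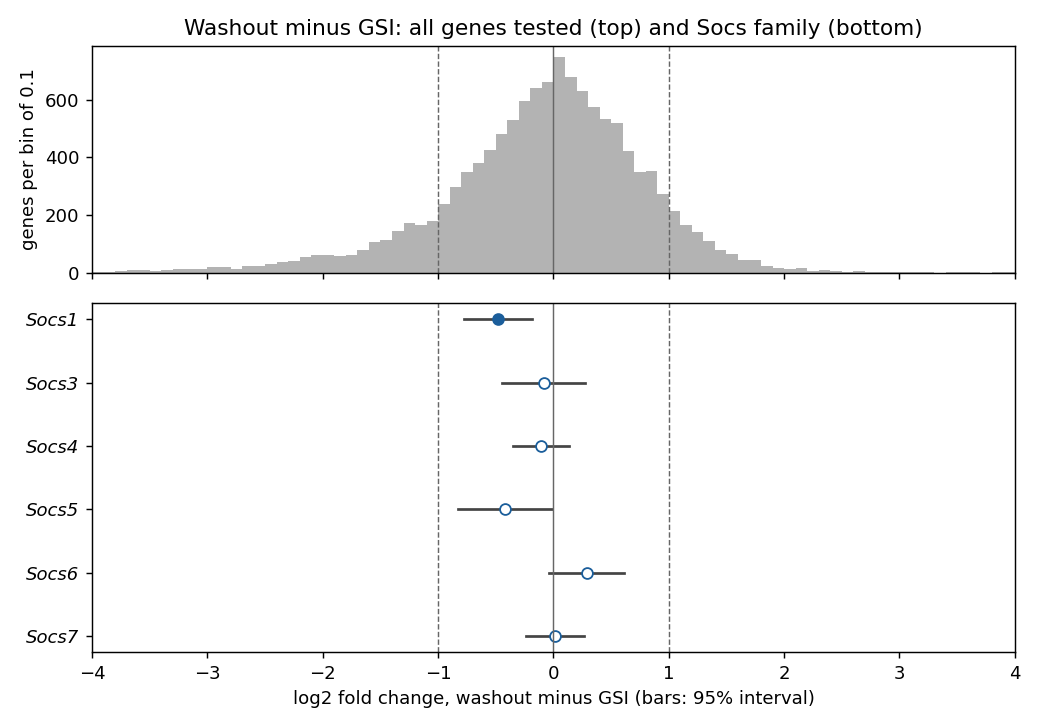
Top, histogram of the log2 fold change of all 12266 genes tested (37 genes beyond 4 in either direction are not drawn). Bottom, the 6 Socs family genes tested, with points for the log2 fold change, filled where the adjusted p-value was under 0.05, and bars for the 95% interval. Dashed lines mark the thresholds of -1 and 1, and no bar reaches either line.

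A view that does not depend on library scaling is the make-up of the family within each library. Socs1 provided 17.1% and 16.6% of the counts of the 8 genes under GSI and 12.5% and 13.6% after washout. Socs6 provided 7.01% and 5.59% under GSI and 9.45% and 7.18% after washout. Socs7 provided 24.5% and 24.8% under GSI and 27.1% and 26.7% after washout, and Socs3 between 31.5% and 36.6% in all libraries. Shares add up to a fixed whole, so a lower share of Socs1 raises the others, and Socs7 itself was nearly level in CPM. The ratio of Socs1 to Socs6 counts was 2.44 and 2.96 under GSI and 1.32 and 1.89 after washout, a mean difference of -0.765 on the log2 scale. The ratio of Socs1 to Socs7 was 0.698 and 0.669 under GSI and 0.461 and 0.509 after washout. In 8 of the 15 pairs among the 6 tested genes, the log2 ratios of the 2 groups did not overlap, and 4 of these 8 pairs include Socs1. The pairs share genes, and the share over pairs of other genes was not computed, so the count is no result about the family. Among single genes tested, 77.3% did not overlap between the groups. The ratios of pairs are descriptions and were not tested. Summed over all members, the family stood at 392 and 433 CPM under GSI and at 361 and 402 CPM after washout, and the groups overlapped.

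**Figure D3:**
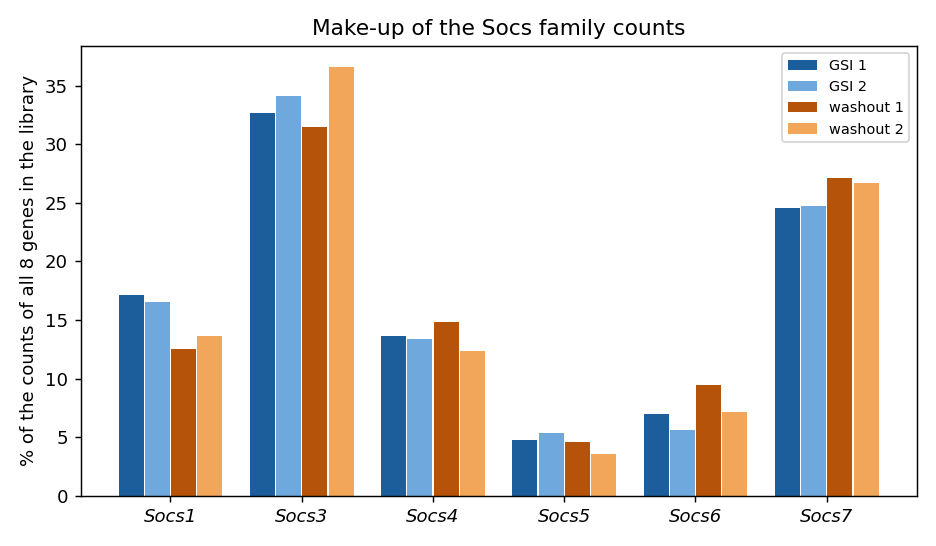
Share of each Socs family gene in the counts of all 8 genes, in percent, for each of the 4 libraries (blue for GSI, orange for washout). Cish and Socs2, which together made up less than 0.5% in every library, are not drawn. The share of Socs1 is lower in both washout libraries than in both GSI libraries, and the shares of Socs6 and Socs7 are higher.

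Cish and Socs2 are the members most directly tied to STAT5. Cish, on chromosome 9 from 107198357 to 107205115 (mm9, plus strand), encodes the founding member of the family, and Socs2, on chromosome 10 from 94847996 to 94879814 (mm9, minus strand), a brake on growth hormone signaling. Cish had 4 and 3 counts under GSI and 0 and 0 after washout. The counts under GSI lie at or just above the limit of detection, and 0 counts allow up to 0.0881 and 0.223 CPM after washout, so that no difference was detectable at this depth and no fold change is given. Cish also overlaps Gm17040 and Gm17041 on the other strand, and reads of these genes cannot be told apart where strand was not used. Socs2 had 42 and 6 counts under GSI and 11 and 4 after washout. In CPM this was 1.31 and 0.411 under GSI, which differ by 3.19-fold from each other, and 0.323 and 0.298 after washout. Both GSI values lay above both washout values, but the second GSI library was close to them, and its exact Poisson interval of 0.151 to 0.895 CPM, which covers counting error only, includes both. When all genes with at least 1 count were tested, the log2 fold change of Socs2 was -1.52 (adjusted p = 0.0301 by the quasi-likelihood test of edgeR), which would call it lower, whereas with DESeq2 it was -1.48 (adjusted p = 0.258). Per kilobase of exon both genes lay more than 10-fold below every other member in every library.

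**Figure D4:**
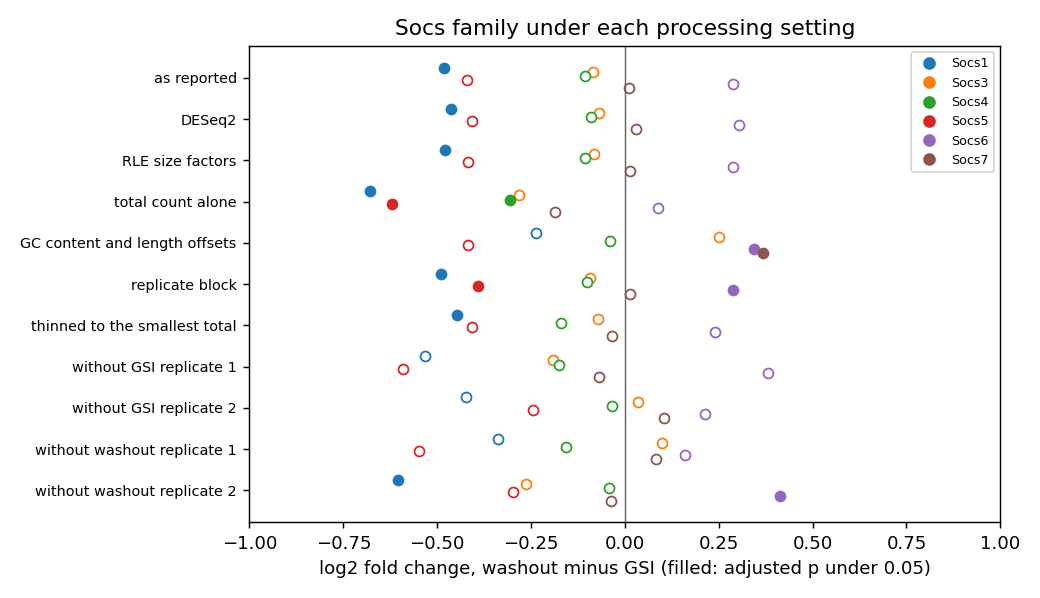
Log2 fold change of the 6 tested Socs family genes under 11 processing settings, 1 row per setting and 1 color per gene, filled where the adjusted p-value was under 0.05. Socs1, Socs4 and Socs5 stay below 0 and Socs6 above 0 in every row, whereas Socs3 and Socs7 change sign. No point passes the thresholds of -1 or 1.

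The genes of the pathway that the family restrains were grouped in lists by role, and no set test was run on them. Il6st, Ifngr1, Ifngr2, Jak2, Tyk2, Rnf7, Tceb1, Ccnd2 and Pias3 fall outside the rule for named genes and were chosen after their values were seen. Of the 22 cytokine receptor chains tested, 2 were called higher and 8 lower, against 7.74% and 11.7% of all genes tested, with a median log2 fold change of -0.67. Some of those called lower passed the count filter through their GSI libraries. With at least 10 counts in every library, 19 chains were tested, of which 2 were called higher and 5 lower. Of all 11293 genes tested at that filter, 807 were called higher and 1131 lower. Il2ra, the α chain of the IL-2 receptor, rose from 1.44 and 1.51 CPM under GSI to 12.4 and 14.6 CPM after washout. Il6ra, the IL-6-binding chain, fell from 9.15 and 5.48 to 0.940 and 0.372 CPM. With 32 and 5 counts after washout, Il6ra was not among the 19. Il6st, which encodes the gp130 chain that SOCS3 docks on, had 140 and 145 CPM under GSI and 66.5 and 75.6 CPM after washout. For Il6st the log2 fold change was -1.01 (standard error 0.102), at the threshold, and -0.95 after offsets for GC content and length. The receptor for IL-7, 1 of the cytokines that SOCS1 limits in this lineage, showed a split. Il7r had 25.4 and 28.0 CPM under GSI and 31.6 and 27.2 CPM after washout (log2 fold change 0.15, adjusted p = 0.373 by the quasi-likelihood test of edgeR). Its partner Il2rg, the common γ chain, had 136 and 138 against 91.1 and 92.8 CPM (log2 fold change -0.57, adjusted p = 0.00258 by that test). For the receptor of interferon γ, Ifngr1 fell from 673 and 542 CPM under GSI to 199 and 147 CPM after washout. Ifngr1 was called lower (log2 fold change -1.81), and Ifngr2 (-0.72) passed the adjusted p-value but not the threshold of 1.

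Of the 11 JAK and STAT genes, 3 were called lower (Stat4 at -1.85, Jak2 at -1.43 and Tyk2 at -1.03 on the log2 scale) and none higher, which is 27.3% beside 19.5% of all genes tested, with a median of -0.80 (-0.41 after offsets for GC content and length, when Tyk2 was at -0.69 and no longer called). Jak1 (-0.49), Jak3 (-0.855) and Stat3 (-0.88) passed the adjusted p-value but not the threshold of 1. Jak1 did not pass without GSI replicate 1 (adjusted p = 0.0695 by that test), and Tyk2 was at -0.99 without GSI replicate 2 and at -0.92 without washout replicate 1, short of the threshold. Stat5a (0.165) and Stat5b (-0.13), the mediators of IL-7 signaling, did not pass the test, although Stat5a was at 0.60 after the same offsets (adjusted p = 0.00281 by that test). None of the 10 genes for partners of the SOCS box was called, but 7 were higher and none lower at the adjusted p-value alone (27.0% and 25.4% of all genes tested), with a median of 0.46. Rnf7 stood at 49.4 and 39.0 CPM under GSI and 76.9 and 63.7 CPM after washout, and Tceb1, which encodes elongin C, at 23.4 and 19.8 against 46.4 and 33.3 CPM. Cul5, which encodes cullin 5, did not pass, with 109 and 91.9 against 150 and 105 CPM, but passed after the offsets for GC content and length (log2 fold change 0.40, adjusted p = 0.024 by that test) and was at 0.066 without washout replicate 1. Under total-count scaling, 4 partners were higher at the adjusted p-value and 1 lower, and 1 was called without GSI replicate 1 or without washout replicate 2.

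**Figure D5:**
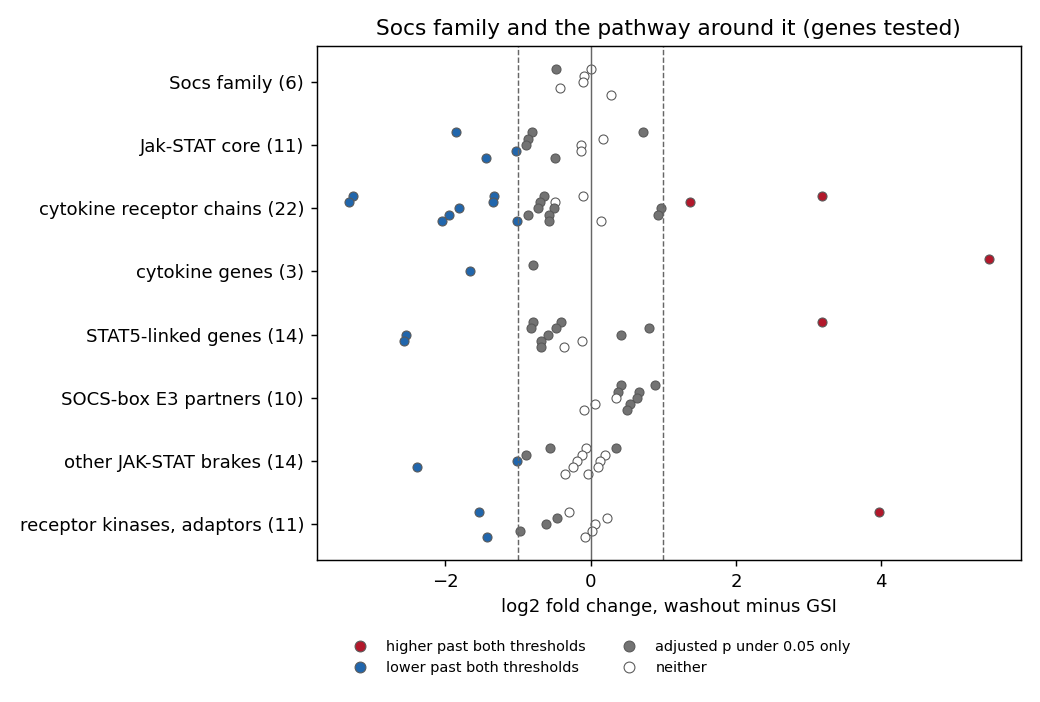
Log2 fold change after washout of the Socs family genes and of the pathway lists described, 1 point per gene tested, with the number of genes in brackets. Red and blue points were called higher or lower, gray points passed the adjusted p-value alone, and open points did not pass. The point at 5.47 is Il10, whose GSI libraries lie below the limit of detection. The Socs family points lie within 0.5 of 0.

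Genes placed downstream of STAT5 and other mediators of cytokine signaling may be set beside the Socs family. The lists overlap, and Il2ra was also counted among the receptor chains called higher. The paper shows both static and dynamic RBPJ sites at Il2ra in Beko cells, and what raised this gene was not tested. Of 14 genes linked to STAT5, 1 was called higher (Il2ra) and 2 lower (Ccnd2 and Cdkn1a), which is 21.4% beside 19.5% of all genes tested, with a median of -0.53, and without GSI replicate 2 the number called was 5 in place of 3. Pim1, which like Cish is a classical STAT5 target, had 24.0 and 30.6 CPM under GSI and 23.9 and 26.3 CPM after washout, and its log2 fold change was -0.12 (standard error 0.152), or 0.19 after the offsets for GC content and length and 0.07 without GSI replicate 2. Bcl2 (-0.81) and Osm (-0.79) passed the adjusted p-value but not the threshold of 1. Bcl2 was at -0.42 without GSI replicate 1 (adjusted p = 0.227 by that test), at -0.66 without washout replicate 2 (adjusted p = 0.0674) and at -1.09, and called, without GSI replicate 2. Osm passed in 1 of the 4 fits with a library left out, without washout replicate 2. Irf1, a transcription factor of the interferon response, had 144 and 160 CPM under GSI and 76.5 and 100 CPM after washout. The log2 fold change of Irf1 was -0.79 (standard error 0.146, adjusted p = 0.00544 by the quasi-likelihood test of edgeR). Of the 14 other brakes on the pathway, 2 were called lower (Usp18 at -2.39 and Pias3 at -1.01) and none higher. This is 14.3% beside 19.5% of all genes tested. The median of the other brakes was -0.15, beside -0.10 for the Socs family. After the offsets for GC content and length these medians were 0.031 and 0.106, beside 0.072 for all genes tested. In that fit 1 of the 14 brakes was called lower, beside 1084 of 10962 genes.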

How the data were processed

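RNA-Seq of 4 Beko libraries (2 GSI, 2 washout) was analyzed. Reads had been trimmed by the authors (trimGalore) and mapped with HISAT2 2.2.1 (version per the submitters' processing notes) to mm9, with 1 alignment reported per read and introns of up to 3000 bases. Gene counts were then taken with summarizeOverlaps from an iGenomes annotation. Reads across longer introns may be lost, and strand setting and overlap mode are not given in the sources used here. What the authors deposited are these counts, not normalized. Columns were mapped to libraries by their labels, and 0 columns were left unused.

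Counts were tested with edgeR 4.0.16 in R 4.3.3 (filterByExpr, TMM, quasi-likelihood test, no block) across 12266 genes with Benjamini-Hochberg adjustment. Each standard error is the size of the log2 fold change over the root of its F statistic. Replicates of a group differed by more than sampling noise (chi-square over its degrees of freedom, 18.2 between the GSI libraries and 28.5 between the washout libraries). Positions, exon lengths and GC content came from GENCODE vM1 (mm9). Motifs were searched in RefSeq windows of GRCm38.p6. The scripts were tested on simulated data.

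The family and the gene lists were chosen with earlier results of these data known. Named genes were all members, the largest rise and fall called in each list with at least 10 counts in every library of a group, and a fixed set of pathway genes. The alternatives were DESeq2 1.42.0, RLE factors or totals alone, other count filters, thinning, a replicate block, offsets for GC content and length, glmTreat, a prior count of 2 and leaving out each library, where the lone library of a group is assumed to vary like the other group. Some items of the lists are not reported here.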

Additional observations from a re-analysis of the deposited data

How the results depend on the processing

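No setting placed any of Socs1, Socs3, Socs4, Socs5, Socs6 or Socs7 past both thresholds. Over 16 fits the log2 fold change of Socs1 lay between -0.68 and -0.24 and passed the adjusted p-value in 12. The count of members called was 1 with at least 1 count in any library and without GSI replicate 2 (Socs2 in both), and 1 at the adjusted p-value alone (Socs1), so it ranged from 0 to 1 when leaving out a library. Under total counts alone 587 genes were higher, and the values were -0.31 for Socs4, -0.62 for Socs5 and -0.19 for Socs7. With at least 1 count in any library Socs5 passed at -0.38 (adjusted p = 0.0498), and with at least 10 counts in every library Socs7 was at -0.026. Counts thinned to the smallest total gave -0.035 for Socs7. Offsets for GC content and length, which 89.4% of the genes tested allow, gave -0.24 for Socs1, 0.25 for Socs3, 0.345 for Socs6 and 0.37 for Socs7. glmTreat called 809 genes (308 higher, 501 lower), and the adjusted p-value alone 6435 (3315 higher, 3120 lower). With 1 library left out, the values ranged from -0.60 to -0.34 for Socs1, -0.26 to 0.10 for Socs3, -0.175 to -0.035 for Socs4, -0.59 (without GSI replicate 1) to -0.24 (without GSI replicate 2) for Socs5, 0.16 to 0.41 for Socs6 and -0.07 to 0.10 for Socs7. Among the pathway lists, DESeq2 called 6 of 30 receptor chains tested, in place of 10 of 22. It called 2113 of all 17049 genes tested, in place of 2387 of 12266. Total counts alone called 5 of the 11 JAK and STAT genes in place of 3, and 2548 of all 12266 genes tested. The causes of these shifts were not tested. Cish and Socs2, at 0 to 42 counts, are limited by depth.

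The libraries share only a replicate number, which also follows depth, and the deviations of same-numbered libraries correlated at 0.497. With the replicate number as a block (paired fit) 2557 genes were called, none of them a Socs gene, and Socs1 (-0.49, adjusted p = 1.86e-05), Socs5 (-0.39) and Socs6 (0.29) passed the adjusted p-value. Thinned counts with the replicate block gave -0.40 for Socs5 and -0.036 for Socs7. GC and length offsets with the replicate block gave -0.24 for Socs1 (adjusted p = 0.00833 by the quasi-likelihood test of edgeR) and -0.38 for Socs5 (0.0244). In the same fit Socs3 was at 0.25 (adjusted p = 0.00439 by that test), Socs6 at 0.34 (0.00478) and Socs7 at 0.37 (0.000262). These 5 members thus passed the adjusted p-value there, 3 of them higher and 2 lower, and none was called.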

Other observations

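Of 18 cytokine genes on the list, 3 had enough counts to be tested (Il10, Osm and Lif). Il10 passed the count filter only through the washout libraries. With at least 10 counts in every library, 1 cytokine gene was tested (Osm), and 0 were called. Il10, an anti-inflammatory cytokine that signals through STAT3, had 2 and 0 counts under GSI and 57 and 36 after washout, which makes it at least 8.14-fold higher, with the limit of 3 counts taken per library. Lif, a ligand of gp130 receptors, had 41 and 11 counts under GSI and 8 and 7 after washout (log2 fold change -1.655, adjusted p = 0.0413 by the quasi-likelihood test of edgeR). The call of Lif was lost without GSI replicate 1 (-1.16, adjusted p = 0.291), without GSI replicate 2 (-1.91, adjusted p = 0.0527), without washout replicate 1 (-1.01, adjusted p = 0.31), with DESeq2 (adjusted p = 0.195), with thinned counts (adjusted p = 0.0624) and after offsets for GC content and length (adjusted p = 0.0564). It was lost with glmTreat as well (adjusted p = 0.423). Osm had 10.8 and 11.0 CPM under GSI and 5.61 and 7.07 CPM after washout.

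Of the 11 receptor kinases, adaptors and substrates tested that SOCS proteins are known to bind, 2 were called lower and 1 higher (27.3%, beside 19.5% of all genes tested). The gene called higher was Egfr, which passed the count filter only through the washout libraries. With at least 10 counts in every library, 10 of these genes were tested, of which 3 were called lower and 0 higher. Kit, the stem cell factor receptor and a partner of SOCS6, fell from 98.8 and 89.3 CPM under GSI to 36.3 and 28.3 CPM after washout, and Irs2, an insulin receptor substrate, from 23.1 and 19.8 to 6.26 and 10.2 CPM. Irs2 was chosen after its values were seen, as was Egfr, the EGF receptor. Egfr had 3 and 0 counts under GSI and 49 and 7 after washout and was at least 2.53-fold higher. Its call was lost with glmTreat (adjusted p = 0.0726).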
